A study of Mus musculus with 8 samples.

Results

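The 3 libraries of celastrol-treated mouse skin were set against the 3 of bleomycin-treated skin by RNA sequencing, so that 6 of the 8 libraries of the series enter the comparison. Each library is named by its group and the number in its label: Bleomycin 2, 3 and 4, and Celastrol 2, 3 and 5. The remaining libraries, PBS 2 and PBS 3, came from mice given phosphate-buffered saline (PBS) and serve here as a reference level. Of the 24612 genes in the deposited table, 23185 stood at 10 or more in 2 or more of the 8 libraries and were compared. All animals were male C57BL/6J mice, ordered at 4 weeks and treated from 6 weeks of age, and the label of every library names 21 days. Bleomycin (0.1 units) and PBS (0.1 mL) went under the skin. Celastrol was injected daily into the peritoneum at 1 or 2 mg/kg. The labels give neither the dose of a single celastrol mouse nor whether those mice also received bleomycin, so dose, route and bleomycin exposure cannot be told apart in this comparison. RNA came from homogenates of whole skin, in which fewer cells of a type and less RNA per cell cannot be told apart.

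Bleomycin breaks DNA, and repeated injection into mouse skin is a standard model of the dermal fibrosis of systemic sclerosis. Celastrol is a reactive triterpenoid from the thunder god vine that modifies protein thiols; in cultured cells it is known to switch on the heat shock response, to inhibit NF-kappaB signalling and to disturb protein folding by HSP90, and in obese mice it lowers food intake in a leptin-dependent way. Mouse skin is a layered tissue of epidermis, collagen-rich dermis, fat and a thin sheet of striated muscle, the panniculus carnosus, so a homogenate holds RNA of all of these. Markers of epidermis were present in every library: the 18 genes of basal epidermis made up 0.897% to 1.31% of the summed values, the 45 genes of differentiated epidermis made up 2.18% to 3.49%, and no gene of either list was at 0 in any library.

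No gene passed limma's test of celastrol against bleomycin at an adjusted p of 0.05, which is 0 of the 23185 genes tested (0%). The smallest adjusted p was 0.975, so every gene named in the comparison of all libraries has an adjusted p of at least that size, and the p-values given from here on are limma's unadjusted ones and only order the genes. At an unadjusted p under 0.05 there were 320 genes with a higher level in celastrol skin (1.38%) and 578 with a lower one (2.49%), 898 in all (3.87%). Quantile normalization moved that split to 389 higher and 401 lower. The number of lower genes was 1322 without Celastrol 5, 300 without Bleomycin 2 and 364 without Bleomycin 4. All 3 celastrol libraries lay above all 3 bleomycin libraries for 958 genes (4.13%), and below them for 1065 genes (4.59%). The log2 difference is always celastrol minus bleomycin, on log2 of the value plus 1, and is followed by its standard error. Its median over all genes was -0.04, with a median standard error of 0.45. For 8650 genes (37.3%) the 95% interval of the difference lay within 1 log2 unit on either side of 0. For the other genes these libraries do not bound the difference to 2-fold.

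The 12 genes with the smallest p on the higher side, among genes that averaged 50 or more and whose groups did not overlap, were Myh4, Tnni2, Casq1, Tnnc2, Trdn, Jph1, Ank1, Ckmt2, Prkaa2, Tpm1, Ppp1r3c and Tnnt3. Myh4 encodes the myosin heavy chain of the fastest muscle fibres, Tnni2, Tnnt3 and Tnnc2 the fast skeletal troponin subunits, Casq1 the calcium store protein of the sarcoplasmic reticulum, and Trdn and Jph1 proteins of the junction where calcium is released. The 12 on the lower side were Ptpdc1, Ntrk2, Nnat, Ciita, Igsf9, Pitpnm2, Ptk2b, Nfam1, Slc2a4rg-ps, Lep, Fmnl1 and C4a. Ciita encodes the master transactivator of MHC class II, Lep the fat hormone leptin, Ntrk2 a neurotrophin receptor and Ptk2b a tyrosine kinase related to focal adhesion kinase.

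The upstream sequence of 3 of the muscle genes is shown because muscle genes lead the higher side and because such genes are classically bound by MyoD-family factors at E-boxes. Each run holds the 250 bases before the start of transcription in RefSeq (GRCm38.p6, the assembly named mm10), 5′ to 3′ on the strand of the gene. Capitals mark the E-box letters CANNTG and the letters TATAAA, searched on both strands. The promoter of Myh4 lies at chr11:67237562-67237811 on the plus strand, that of Casq1 at chr1:172219896-172220145 on the minus strand, and that of Tnnc2 at chr2:164779735-164779984 on the minus strand. These RefSeq starts differ from the gene positions that go with the expression values. There Tnnc2 runs from 164777161 to 164779967, so that its window overlaps the gene, and Myh4 begins only at 67238029.
Myh4: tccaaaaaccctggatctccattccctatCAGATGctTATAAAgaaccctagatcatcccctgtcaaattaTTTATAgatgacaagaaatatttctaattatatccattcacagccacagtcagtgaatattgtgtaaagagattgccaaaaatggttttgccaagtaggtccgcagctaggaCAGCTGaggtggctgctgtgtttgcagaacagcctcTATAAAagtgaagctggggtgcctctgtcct
Casq1: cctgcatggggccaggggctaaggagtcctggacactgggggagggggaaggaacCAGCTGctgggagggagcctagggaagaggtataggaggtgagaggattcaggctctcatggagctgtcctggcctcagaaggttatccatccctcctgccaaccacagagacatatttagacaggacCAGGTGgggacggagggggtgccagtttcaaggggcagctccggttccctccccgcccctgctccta
Tnnc2: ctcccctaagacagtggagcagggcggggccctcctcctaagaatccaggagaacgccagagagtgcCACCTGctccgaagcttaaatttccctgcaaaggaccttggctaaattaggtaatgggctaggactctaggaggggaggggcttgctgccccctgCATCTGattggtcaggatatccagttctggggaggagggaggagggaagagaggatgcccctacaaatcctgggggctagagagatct
In these windows each of the 3 genes had 2 E-boxes, and Myh4 had 3 matches to TATAAA. The MEF2 core, CTA and TAG with 4 bases of any kind between them, was searched too. Over the skeletal muscle list, 32 of 46 genes had an entry, with 39 promoters, and 33 of those (84.6%) held CANNTG, against 66.2% of all 32851 promoters. The narrower form CAGCTG, which is contained in CANNTG, stood in 17 of the 39 (43.6%) against 13% of all. TATAAA stood in 23.1% against 12.4%, and the MEF2 core in 3 of the 39 (7.69%) against 3.2%. The 12 fast fibre genes, to which the 3 shown belong, had 10 promoters in the table. Of these 7 held CANNTG (70%), close to the share of all promoters, 5 held CAGCTG (50%), 3 held TATAAA (30%) and 0 the MEF2 core. These shares describe letters in a window and bear on the list as a whole, not on celastrol.

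Skeletal muscle genes were the list with the most members on the higher side. Of 46 muscle genes measured, 0 passed the adjusted threshold, 17 were higher at an unadjusted p under 0.05 (37.0%, against 1.38% of all genes) and 0 were lower. All 3 celastrol libraries lay above all 3 bleomycin libraries for 14 of the 46 (30.4%, against 4.13% of all genes). The median log2 difference of the list was 0.40, and 35 of 46 estimates were above 0. The median was 0.275 without Celastrol 5 and 0.795 without Bleomycin 2. Without Celastrol 5 the 17 became 10, the lowest number when single libraries were left out, and without Bleomycin 2 it became 23, the highest. Together the 46 genes took 5.47%, 3.78% and 4.33% of the summed values in Bleomycin 2, 3 and 4, and 7.26%, 5.71% and 8.3% in Celastrol 2, 3 and 5. The lowest celastrol share was above the highest bleomycin share, and both PBS libraries (2.77% and 2.68%) lay below all of them. Most of this share is Ttn, the giant spring protein of the sarcomere. Without it the shares were 1.33% ± 0.354 (SD, n = 3) in bleomycin and 1.91% ± 0.273 (n = 3) in celastrol skin, and the groups overlapped, with Bleomycin 2 at 1.72% and Celastrol 3 at 1.63%.

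**Figure D1:**
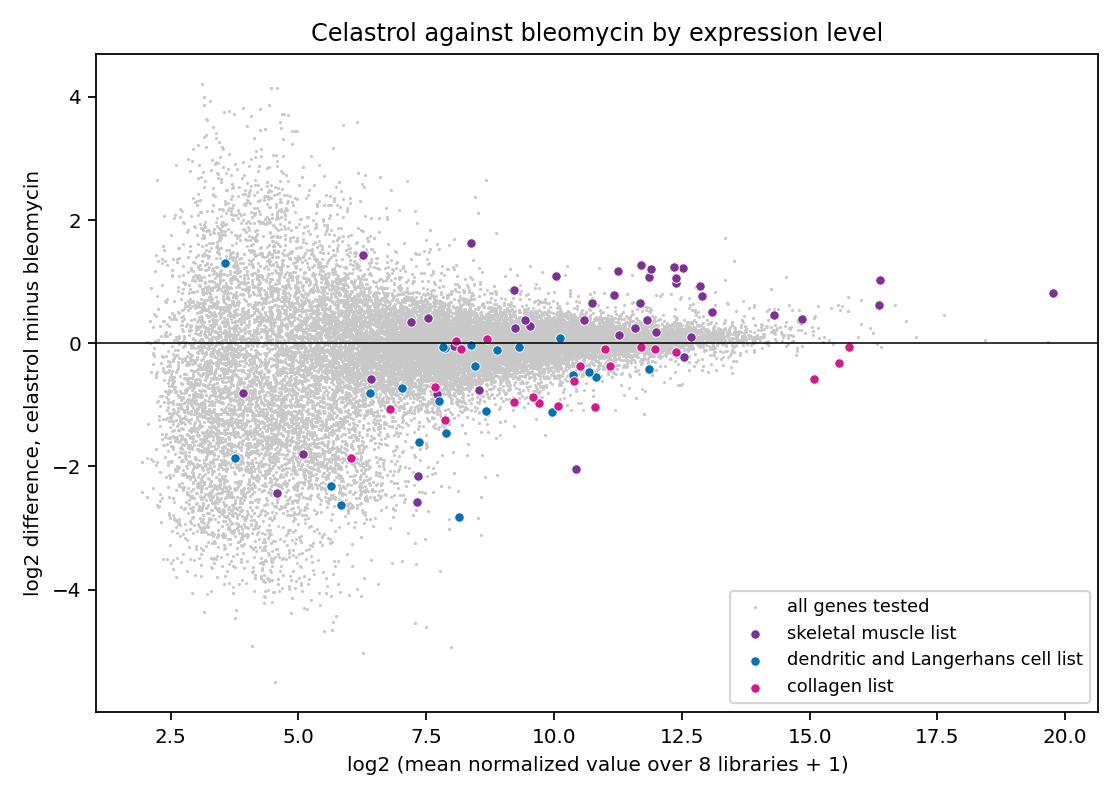
Each grey point is 1 of the 23185 genes tested; the horizontal axis is log2 of the mean normalized value over the 8 libraries plus 1 and the vertical axis the log2 difference, celastrol minus bleomycin. Genes of the skeletal muscle list (purple) lie mostly above 0 at high levels, while those of the dendritic and Langerhans cell list (blue) and the collagen list (pink) lie mostly below 0; no point passed the adjusted threshold.

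Within the muscle list the fast and the slow fibre genes had different values, a contrast that was not itself tested. The roles used here were assigned from textbook knowledge after the values had been seen, so their counts are descriptions. Of 12 fast fibre genes all 12 had an estimate above 0, 10 had an unadjusted p under 0.05, 8 had groups that did not overlap, and the median log2 difference was 1.12. Of 7 slow fibre genes 0 had an unadjusted p under 0.05, 1 had an estimate above 0, and the median was -0.77. Of 9 genes of regeneration and atrophy 0 had an unadjusted p under 0.05, 5 had an estimate above 0, and the median was 0.19. The fast fibre median stayed between 0.80 and 1.49 in the 21 alternative settings tried, and the slow fibre median ran from -1.45 to 0.08.

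Myh4 (chromosome 11, 67238029 to 67260446, plus strand) stood at 77403, 56208 and 57001 in Bleomycin 2, 3 and 4, and at 131513, 119264 and 135756 in Celastrol 2, 3 and 5. Every celastrol library was above every bleomycin library, and PBS 2 and PBS 3 stood at 53731 and 53460, below all the others. The mean was 2.03 times as high in celastrol skin, a log2 difference of 1.03 ± 0.18 (95% interval 0.63 to 1.44, limma unadjusted p = 0.000176). Tnni2 (chromosome 7, 142441808 to 142444410, plus strand), the inhibitory subunit of fast troponin, stood at 3543, 2388 and 2530 in bleomycin and at 5929, 4774 and 6997 in celastrol skin, a log2 difference of 1.07 ± 0.20. Its groups did not overlap, and Celastrol 5 was the highest library. Tnnc2 (chromosome 2, 164777161 to 164779967, minus strand), the calcium-binding subunit, stood at 1745, 1635 and 1760 against 3613, 3128 and 5058, a log2 difference of 1.17 ± 0.23. Tnnt3, the subunit that ties the complex to tropomyosin, stood at 132, 288 and 181 against 524, 489 and 803, a log2 difference of 1.63 ± 0.36. In both genes the lowest celastrol library stood above the highest bleomycin library.

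Casq1 (chromosome 1, 172209894 to 172219868, minus strand) differed from the troponin genes Tnni2 and Tnnc2 in its reference level. It stood at 3309, 2332 and 1705 in bleomycin skin and at 5285, 4734 and 6350 in celastrol skin, a log2 difference of 1.20 ± 0.23, while PBS 2 and PBS 3 stood at 3136 and 3822. Its groups did not overlap, but PBS skin lay among or above the bleomycin libraries, unlike Myh4. Triadin (Trdn) stood at 4135, 4413 and 4200 against 8204, 6642 and 7401, and junctophilin 1 (Jph1) at 1232, 907 and 913 against 2004, 1626 and 1894, log2 differences of 0.80 ± 0.17 and 0.87 ± 0.19. Neither gene overlapped between the groups, and the bleomycin libraries were most alike for Trdn.

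The other myosins were less even. Myh2, another fast fibre chain, stood at 6587, 4095 and 1992 in bleomycin skin and at 7934, 9812 and 8626 in celastrol skin, a log2 difference of 1.21 ± 0.49. Its celastrol libraries were close together and its bleomycin libraries spread over 3-fold, with no overlap. Myh1 stood at 34264, 24581 and 31180 against 52965, 28679 and 37746, and here the groups overlapped, with a log2 difference of 0.38 ± 0.23. Of the fast light chains, Mylpf stood at 4155, 2993 and 3075 against 6029, 6256 and 13484, and Myl1 at 6077, 4962 and 4562 against 8471, 6989 and 15938. In both genes Celastrol 5 stood about 2-fold above the other celastrol libraries. Parvalbumin (Pvalb), the calcium buffer of fast fibres, had a log2 difference of 1.28 ± 0.35 with overlap, since Bleomycin 2 at 3331 passed Celastrol 3 at 3281. The fast calcium pump Atp2a1 overlapped widely, at 38445, 9911 and 13964 against 27711, 16189 and 30787 (log2 difference 0.46 ± 0.51).

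Slow fibre genes had no even pattern. Myh7, the slow myosin chain, stood at 5681, 272 and 1841 in bleomycin and at 31, 1072 and 1193 in celastrol skin. Bleomycin 2 was highest and Celastrol 2 lowest, and the log2 difference was -2.04 ± 1.33 (95% interval -4.97 to 0.89). The slow regulatory light chain Myl2 stood at 490, 40.5 and 290 against 0, 189 and 146. Celastrol 2 was again the lowest and Bleomycin 2 the highest. Without Celastrol 2 and Celastrol 3 together, which was tried once the values had been seen, the sign of Tnni1, Tnnt1 and Tnnc1 was the other way, while every fast fibre gene kept a positive estimate in all 21 settings.

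**Figure D2:**
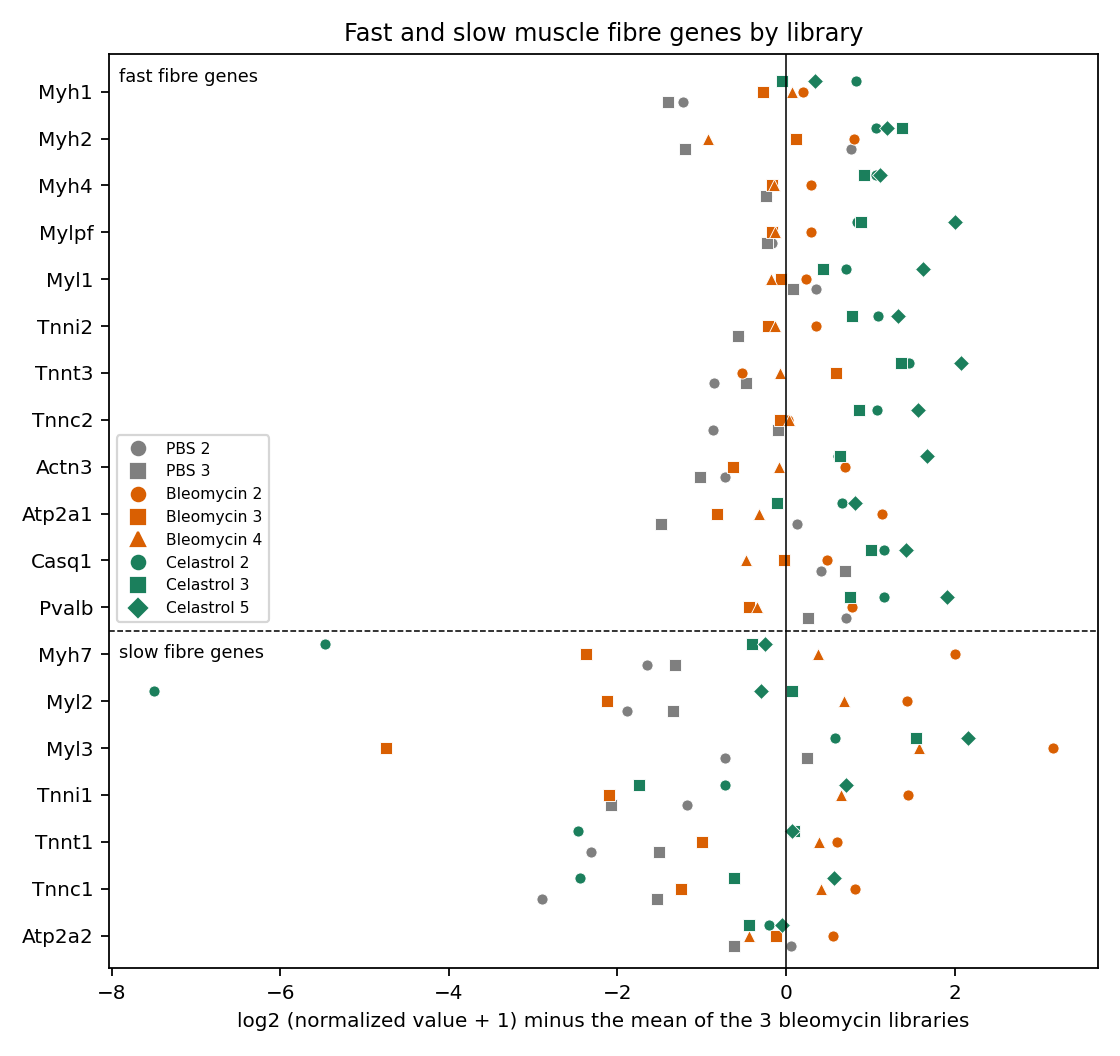
Points give log2 of the normalized value plus 1 in each library, minus the mean of the 3 bleomycin libraries, for 12 fast fibre genes (above the dashed line) and 7 slow fibre genes (below it). Celastrol libraries (green) lie right of all bleomycin libraries (orange) for 8 of the 12 fast genes, whereas slow genes spread to both sides, with Celastrol 2 far to the left for Myh7 and Myl2.

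Muscle structure and energy genes outside the fibre-type sets went the same way. Ttn stood at 858538, 661035 and 720113 in bleomycin and at 1332090, 1027910 and 1613920 in celastrol skin, a log2 difference of 0.81 ± 0.29 without overlap. Nebulin (Neb), the ruler of the thin filament, had a log2 difference of 0.62 ± 0.19, the muscle creatine kinase gene Ckm 1.07 ± 0.34 and the Z-disc gene Myoz1 1.09 ± 0.36, each without overlap. Ckmt2, the creatine kinase of muscle mitochondria, stood at 1062, 789 and 578 against 1416, 1949 and 1765. Prkaa2, the AMP-activated kinase subunit most abundant in muscle, stood at 2444, 1806 and 2497 against 3398, 4040 and 4279, and Ppp1r3c, which targets a phosphatase to glycogen, at 828, 685 and 1085 against 1692, 1734 and 2829. Each of these 3 genes had its lowest celastrol library above its highest bleomycin library. The log2 differences were 1.11 ± 0.24, 0.80 ± 0.18 and 1.25 ± 0.28. Ank1, whose short form anchors the sarcoplasmic reticulum, had the widest gap of the 12, at 274, 68 and 197 against 717, 606 and 707 (log2 difference 2.12 ± 0.46), and Bleomycin 3 was its lowest library.

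In the myofibroblast and smooth muscle list the higher members were tropomyosin genes, which striated muscle also expresses. Of 26 members 2 were higher at an unadjusted p under 0.05 (7.69%, against 1.38% of all genes), 1 was lower (3.85%, against 2.49%), and the median log2 difference was -0.02. Tpm1 stood at 7306, 7502 and 6501 in bleomycin and at 11178, 10694 and 16914 in celastrol skin, and Tpm2 at 18141, 13284 and 14267 against 23409, 24770 and 36862. Neither gene overlapped between the groups, and the log2 differences were 0.83 ± 0.18 and 0.88 ± 0.21. Acta2, the actin that defines myofibroblasts and vascular smooth muscle, stood at 2278, 1495 and 1846 against 2122, 1851 and 2682. Its groups overlapped, with a log2 difference of 0.25 ± 0.20 (95% interval -0.20 to 0.70).

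Among matrix genes no difference was larger than the spread of the libraries allows to be called. Collagen levels were highest in the PBS reference. The collagen list took 3.19% and 1.23% of the summed values in PBS 2 and PBS 3. It took 0.48%, 0.148% and 0.11% in Bleomycin 2, 3 and 4, and 0.128%, 0.226% and 0.111% in Celastrol 2, 3 and 5. Of 22 fibrillar and fibril-associated collagen genes 0 passed, 0 were higher and 2 were lower at an unadjusted p under 0.05 (9.09%, against 2.49% of all genes), and 20 estimates were below 0 with a median of -0.47. Col1a1 stood at 18991, 1482 and 1238 in Bleomycin 2, 3 and 4, and at 1261, 5061 and 1656 in Celastrol 2, 3 and 5. Bleomycin 2 stood over 10-fold above the other bleomycin libraries, Celastrol 3 was the highest of its group, and the PBS libraries, at 200815 and 48044, lay above all 6. The log2 difference was -0.57 ± 0.95 (95% interval -2.67 to 1.52). Col1a2 and Col3a1, the chains that accompany it in dermal fibrils, gave -0.32 ± 0.68 and -0.06 ± 0.52, again with Bleomycin 2 and Celastrol 3 highest. Without Bleomycin 2 the collagen median was -0.18. The 2 collagens with an unadjusted p under 0.05 were Col8a2, at 156, 64 and 29.4 against 26.3, 21.9 and 9.25, and Col27a1, which overlapped.

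The other matrix lists had between 1 and 3 members on the lower side and none passed. Basement membrane genes had 1 of 21 lower at an unadjusted p under 0.05 (4.76%, against 2.49%) and a median of -0.43, small leucine-rich proteoglycans 2 of 12 (16.7%) and -0.19, and matricellular and elastic fibre genes 3 of 36 (8.33%) and -0.16. Collagen processing genes had 1 of 27 lower (3.7%) and a median of 0.05. The basement membrane median was -0.0437 without Bleomycin 2. The proteoglycan median was 0.0421 without Celastrol 5, and the matricellular one was 0.0765 without Bleomycin 2. Agrin (Agrn), a heparan sulfate proteoglycan of basement membranes, stood at 2378, 1175 and 1177 against 1070, 671 and 789, and Ltbp3, which stores latent TGF-beta in the matrix, at 1061, 531 and 610 against 443, 371 and 332. In both genes the celastrol libraries lay below all bleomycin libraries. The log2 differences were -0.85 ± 0.32 and -0.88 ± 0.32. Among 30 matrix proteases and inhibitors 1 was higher (3.33%, against 1.38% of all genes) and 1 was lower (3.33%, against 2.49%) at an unadjusted p under 0.05. The higher one was the collagenase gene Mmp13, at 65.4, 336 and 69.8 in bleomycin and at 1727, 405 and 552 in celastrol skin. It had the widest higher difference of its list, a log2 difference of 2.65 ± 0.74, with Celastrol 2 highest and no overlap.

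Signalling lists of fibrosis had up to 3 members on the lower side, and none passed. Of 27 genes of TGF-beta signalling 2 were lower at an unadjusted p under 0.05 (7.41%, against 2.49%), 0 were higher, and the median was -0.03. Tgfb1, the ligand itself, stood at 468, 263 and 332 in bleomycin and at 90.6, 187 and 288 in celastrol skin, a log2 difference of -1.02 ± 0.43. The groups overlapped, since Celastrol 5 exceeded Bleomycin 3. Bambi, a decoy receptor that dampens the pathway, stood at 33.1, 82.3 and 40.5 against 0, 0 and 14.2. Its estimate was -4.31 ± 1.19, and it ran from -5.62 to -3.65 without single libraries. Over all its alternatives, which include leaving out both celastrol libraries at 0, it ran from -5.74 to -1.30. Of 34 YAP/TAZ targets and Hippo genes 1 was lower (2.94%, against 2.49%) and the median was -0.06. Ccn2, a matricellular target of both pathways, stood at 1813, 1088 and 1201 against 1676, 1243 and 844 (log2 difference -0.14 ± 0.30), and Ccn1 at 892, 424 and 403 against 125, 666 and 318 (-0.84 ± 0.53). Both overlapped between the groups. Of 43 Wnt and BMP genes 3 were lower (6.98%), among them the secreted Wnt inhibitor gene Wif1, at 122, 192 and 123 against 29.5, 50.6 and 93.9.

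**Figure D3:**
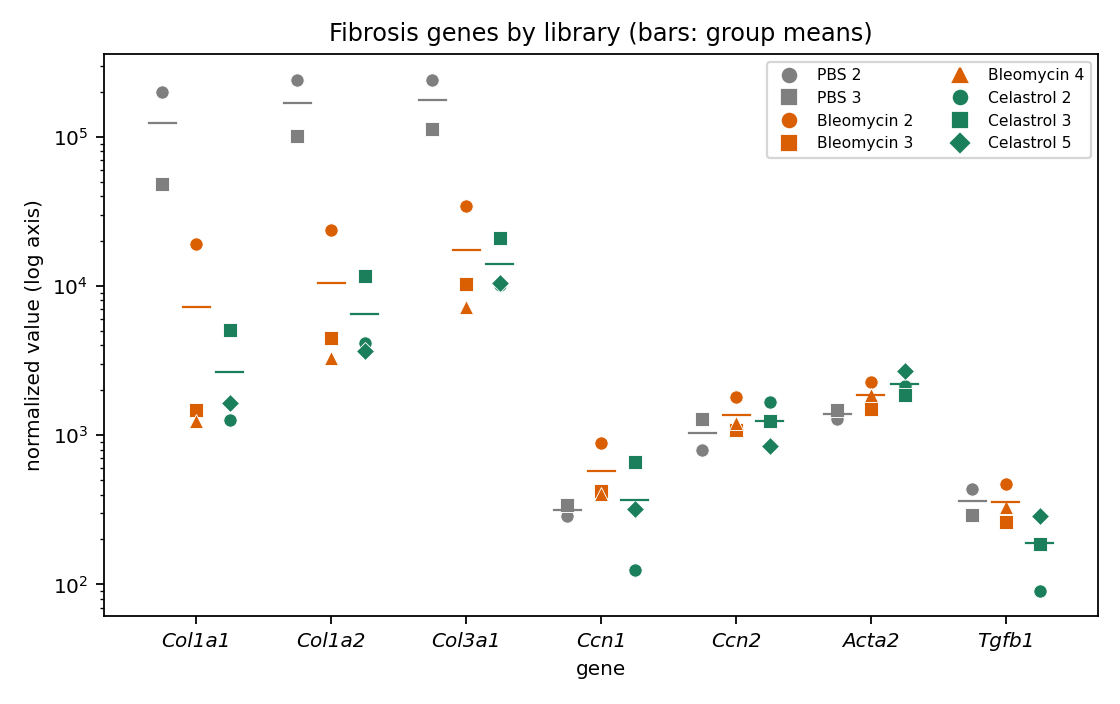
Normalized values of 7 fibrosis genes on a log axis, 1 point per library and a bar at each group mean. For Col1a1, Col1a2 and Col3a1 both PBS libraries (grey) stand above all bleomycin (orange) and celastrol (green) libraries, which overlap each other for all 7 genes.

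Genes of antigen presentation had the lowest median of the lists in celastrol skin. Of 23 dendritic and Langerhans cell genes 0 passed, 4 were lower at an unadjusted p under 0.05 (17.4%, against 2.49% of all genes), and for 8 all celastrol libraries lay below all bleomycin libraries (34.8%, against 4.59%). The median log2 difference was -0.55, the lowest among 45 lists, and 21 of 23 estimates were below 0. It ran from -0.655 to -0.354 when single libraries were left out. Ciita stood at 565, 579 and 396 in bleomycin and at 200, 231 and 280 in celastrol skin, with the PBS libraries at 638 and 370. All celastrol libraries were lower than all others, and the log2 difference was -1.10 ± 0.30 (95% interval -1.76 to -0.45, limma unadjusted p = 0.00354). The MHC class II genes themselves had smaller estimates. H2-Eb1 stood at 1587, 1685 and 1381 against 1013, 1041 and 1344 (-0.46 ± 0.20), H2-Aa had a log2 difference of -0.55 ± 0.26, and Cd74, the invariant chain, -0.43 ± 0.33 with overlap.

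Markers of single dendritic subsets had mixed values. The Langerhans cell lectin gene Cd207 stood at 171, 243 and 309 in bleomycin and at 161, 197 and 339 in celastrol skin, overlapping throughout. Mgl2, a lectin of dermal dendritic cells and macrophages, stood at 800, 1150 and 733 against 158, 628 and 657, and Zbtb46, a transcription factor of conventional dendritic cells, at 153, 229 and 242 against 21.3, 72.5 and 183. For both genes Celastrol 2 was the lowest of all libraries. Clec9a, a marker of cross-presenting dendritic cells, was at 0 in Celastrol 2 and at 52.3 and 39.8 in Celastrol 3 and 5, against 63.4, 73.2 and 56.6 in bleomycin skin. Depth differed here as well: Celastrol 2 and 3 were estimated at 15100000 and 14900000 reads against 18500000 to 33300000 for the bleomycin libraries, and 5 of the 23 genes were at 0 in some library. The part of depth in these differences was not tested.

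The macrophage and neutrophil lists each had 1 member at an unadjusted p under 0.05. Of 38 macrophage genes 0 were higher and 1 was lower (2.63%, against 2.49% of all genes). The lower one was the lysozyme gene Lyz1, at 177, 105 and 100 against 39.1, 45 and 67.2. For 3 members all celastrol libraries lay above all bleomycin libraries (7.89%, against 4.13%). One of those was Tyrobp, an adaptor of myeloid receptors, at 282, 225 and 259 against 391, 297 and 463. The neutrophil list had the highest median of the 45 lists, 0.87 over 15 genes. Of its members 1 was higher at an unadjusted p under 0.05 (6.67%, against 1.38% of all genes), and 0 had separate groups. Its median was -0.13 without Bleomycin 2. The alarmin gene S100a8 stood at 38.6, 1610 and 80.8 in bleomycin and at 233, 351 and 445 in celastrol skin. Bleomycin 3 was above and the other bleomycin libraries below all celastrol libraries. Stfa2, a stefin of a family of near-identical genes, stood at 85.4, 772 and 235 against 719, 857 and 1044.

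Lymphocyte and mast cell genes gave few differences. Of 29 T and NK cell genes 0 were higher and 1 was lower at an unadjusted p under 0.05 (3.45%, against 2.49% of all genes), with a median of -0.35. The lower one was Trdc, the constant region of the gamma-delta T cell receptor that epidermal T cells of the mouse carry, at 292, 238 and 244 against 142, 50.6 and 189. Its groups did not overlap, and Celastrol 3 was lowest. In all, 2 members had separate groups with celastrol lower (6.9%, against 4.59%) and 1 with celastrol higher (3.45%, against 4.13%). The higher one was Trbc2, another T cell receptor constant region, at 182, 193 and 205 against 288, 291 and 308 (log2 difference 0.61 ± 0.28). The B and plasma cell list had 1 of 14 lower (7.14%, against 2.49%) and the mast cell list 0 of 15 in either direction, with a median of 0.07. Of 54 interferon-stimulated genes 1 was lower (1.85%, below the 2.49% of all genes) and 0 were higher. The lower one was Stat2, a subunit of the factor that type I interferon activates, at 2882, 2831 and 2974 against 2333, 2127 and 1944 (log2 difference -0.44 ± 0.15). All celastrol libraries were below all bleomycin libraries and above both PBS libraries, which stood at 1410 and 1413. The list median was -0.21, and 44 of 54 estimates were below 0. Gbp5, an interferon-gamma-induced GTPase, was the other member with separate groups, at 760, 649 and 932 against 627, 508 and 579. These 2 members were 3.7% of the list, below the 4.59% of all genes.

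Genes of the differentiated epidermis had more members on the higher side than all genes did. Of 45 members 8 were higher at an unadjusted p under 0.05 (17.8%, against 1.38%), 0 were lower, and 5 had all celastrol libraries above all bleomycin libraries (11.1%, against 4.13%). The median log2 difference was 0.32, with 38 of 45 estimates above 0. It was 0.181 without Celastrol 5 and 0.562 without Bleomycin 3. Involucrin (Ivl), a scaffold of the cornified envelope, stood at 857, 943 and 1310 in bleomycin and at 1656, 1503 and 2124 in celastrol skin, with PBS at 881 and 873. Celastrol was higher in every library, a log2 difference of 0.77 ± 0.21 (limma unadjusted p = 0.00401). Casp14, the caspase that acts in filaggrin breakdown, stood at 2577, 5251 and 4039 against 6308, 5709 and 8041, and filaggrin (Flg) at 17369, 15969 and 12692 against 23659, 21760 and 23111. Neither overlapped, and the log2 differences were 0.80 ± 0.25 and 0.59 ± 0.23. The filaggrin relative Hrnr and the calcium-binding Calm4 had estimates of 0.74 ± 0.30 and 0.62 ± 0.21 with overlap, Bleomycin 3 being within the celastrol range.

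Values of the stressed epidermis list moved with single bleomycin libraries. Of 31 genes of stressed and wounded epidermis 2 were higher at an unadjusted p under 0.05 (6.45%, against 1.38%), 28 estimates were above 0, and the median was 0.67. It was 1.45 without Bleomycin 3 and 0.25 without Bleomycin 2. The wound keratin gene Krt6a stood at 5593, 39537 and 8755 in bleomycin and at 27933, 18037 and 12754 in celastrol skin, so that Bleomycin 3 was the highest of all and the other bleomycin libraries the lowest of the 6. Sprr2a2, a cornified envelope protein with near-identical copies, stood at 2508, 13899 and 6206 against 21316, 15435 and 22720, without overlap. Ereg, an EGF receptor ligand, stood at 1451, 1857 and 1373 against 2342, 2716 and 2986, and here Bleomycin 3 was close to its group (log2 difference 0.79 ± 0.20). Repetin (Rptn), of the filaggrin family, was chosen after its values were seen: it stood at 3171, 31985 and 3258 against 14798, 18957 and 18609. With all libraries its log2 difference was 1.33 ± 0.69, and without Bleomycin 3 it was 2.43 ± 0.17 and was the only gene to pass (limma adjusted p = 0.00303). Basal epidermis, with 0 of 18 members at an unadjusted p under 0.05, and hair, with 0 of 16, showed no such pattern.

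Genes of energy metabolism had estimates mostly above 0. Of 52 nuclear-encoded genes of oxidative phosphorylation 7 were higher at an unadjusted p under 0.05 (13.5%, against 1.38%), 12 had separate groups with celastrol higher (23.1%, against 4.13%), and 50 of 52 estimates were above 0, with a median of 0.35. Uqcrh, a hinge subunit of complex III, stood at 608, 715 and 695 in bleomycin and at 1192, 987 and 1055 in celastrol skin, and Cox6c, of complex IV, at 3024, 3010 and 3240 against 3778, 4150 and 5794. Both were higher in every celastrol library, with log2 differences of 0.68 ± 0.18 and 0.54 ± 0.18. Ndufa9, of complex I, gave 0.58 ± 0.23, again without overlap. The median was 0.16 without Celastrol 5, the library with the highest muscle share, and 0.53 without Celastrol 3. Of 15 mitochondrially encoded genes 2 were higher (13.3%) and the median was 0.56 (0.292 without Bleomycin 2), with mt-Cytb at 31705, 42864 and 47102 against 50030, 59557 and 77713. In glycolysis and hypoxia 3 of 28 genes were higher (10.7%) and the median was 0.20 (0.0878 without Celastrol 5 and 0.405 without Celastrol 3), with the lactate dehydrogenase gene Ldha at 3540, 3606 and 3178 against 5167, 3868 and 6260. The muscle share of the summed values, most of it Ttn, stood higher in all celastrol libraries too, and its part in these differences was not tested. Without Ttn the muscle shares of the groups overlapped, with Bleomycin 2 at 1.72% and Celastrol 3 at 1.63%. Cytosolic ribosomal protein genes had 5 of 40 higher (12.5%) and a median of 0.24 (0.114 without Celastrol 5 and 0.449 without Celastrol 3), with Rpl11 at 284, 276 and 271 against 476, 468 and 432. Ribosomal protein genes have many processed copies, so their values are uncertain.

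Stress responses that celastrol is known to trigger in cultured cells had few members at an unadjusted p under 0.05. Of 33 heat shock genes 0 were higher and 0 lower at that threshold, 3 had separate groups with celastrol higher (9.09%, against 4.13%), and the median was 0.17. Estimates above 0 numbered 24 of 33, and the median ran from 0.123 to 0.242 without single libraries. The inducible chaperone gene Hspa1a stood at 1002, 239 and 201 in bleomycin and at 298, 539 and 305 in celastrol skin. Its log2 difference was 0.01 ± 0.68 (95% interval -1.50 to 1.52), so these libraries do not bound it to 2-fold. The near-identical copy Hspa1b stood at 2124, 442 and 408 against 433, 308 and 617 (-0.74 ± 0.72). In both, Bleomycin 2 was the highest of the 6 libraries. The HSP90 cofactor gene Ahsa1, at 1074, 1369 and 1208 against 1712, 1388 and 1647, and the mitochondrial chaperonin gene Hspe1, at 629, 1031 and 985 against 1167, 1070 and 1244, were among the 3 separate ones. Of 39 NRF2 targets 1 was higher (2.56%, against 1.38% of all genes), the glutathione transferase gene Gsta3 (0.97 ± 0.41). For 2 members the groups were separate with celastrol higher (5.13%, against 4.13%). In this list 26 estimates were above 0, with a median of 0.12 (0.00032 to 0.22 without single libraries). Me1, the member with the highest level, gave 0.54 ± 0.27, heme oxygenase (Hmox1) -0.19 ± 0.26 and Nqo1 -0.95 ± 0.47, each with overlap. The unfolded protein response had 0 of 36 members and the proteasome 0 of 38 in either direction, with medians of 0.06 and 0.07. In the proteasome list 27 of 38 estimates were above 0. There 3 members had separate groups with celastrol higher (7.89%, against 4.13%) and 0 with celastrol lower.

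Inflammatory and growth signalling lists had few members at an unadjusted p under 0.05. Of 26 NF-kappaB feedback targets 0 were higher and 1 was lower at an unadjusted p under 0.05 (3.85%, against 2.49%), Rela, a subunit of NF-kappaB itself, at 579, 297 and 216 against 98.5, 105 and 223. Celastrol 2 and 3 were low and Celastrol 5 overlapped with bleomycin. For 3 of the 26 all celastrol libraries lay below all bleomycin libraries (11.5%, against 4.59% of all genes), and for 1 above them (3.85%, against 4.13%). Among the 3 was Zc3h12a, at 303, 394 and 268 against 153, 172 and 255. In this list 20 of 26 estimates were below 0, with a median of -0.07. Of 43 chemokine and cytokine genes 1 was higher (2.33%, against 1.38% of all genes) and 1 lower (2.33%, against 2.49%), with a median of -0.21. The immediate early gene list had 2 of 29 lower (6.9%), Fos, at 2804, 1180 and 956 against 620, 1059 and 217, and the phosphatase gene Dusp1, at 1980, 1341 and 1564 against 929, 1567 and 765. In each, 1 celastrol library lay within the bleomycin range, and 24 of 29 estimates of the list were below 0. Of 31 p53 targets 0 had an unadjusted p under 0.05, and the arrest gene Cdkn1a stood at 2524, 1258 and 1500 against 1866, 1184 and 1903 (log2 difference -0.06 ± 0.34). The death receptor gene Fas was 1 of 3 members of this list with celastrol lower in every library (9.68%, against 4.59% of all genes), at 369, 427 and 490 against 292, 263 and 339. The cell cycle list had 0 of 44, the clock list 0 of 19 and the glucocorticoid list 2 of 20 members (10%) at an unadjusted p under 0.05, the latter both lower.

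Fat, gland and vessel genes completed the lists. Of 25 adipocyte genes 2 were lower at an unadjusted p under 0.05 (8%, against 2.49%), with a median of -0.26. They were Lep, at 737, 512 and 1477 in bleomycin and at 309, 218 and 497 in celastrol skin (log2 difference -1.35 ± 0.40), and Nnat, a membrane protein of fat and nerve cells, at 331, 234 and 910 against 0, 42.2 and 57.6 (-4.93 ± 1.30). Both had separate groups, with Bleomycin 4 highest, and for Lep the PBS libraries stood at 482 and 553. The adipocyte share of the summed values, 0.256% to 0.661% in bleomycin and 0.247% to 0.742% in celastrol skin, overlapped. Of 21 sebaceous gland genes 1 was lower (4.76%, against 2.49%), the wax synthase gene Awat2, at 244, 259 and 181 against 120, 105 and 103. The desaturase gene Scd1 stood at 51710, 46005 and 32165 against 38148, 66344 and 128083. Endothelial genes had 1 of 27 lower (3.7%, against 2.49%) and a median of -0.33. Dermal fibroblast, nerve and Schwann cell, melanocyte and blood lists had 0 members of 25, 16, 12 and 10 at an unadjusted p under 0.05. Cholesterol synthesis had 1 of 24 higher, Stard4 (4.17%, against 1.38% of all genes).

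**Figure D4:**
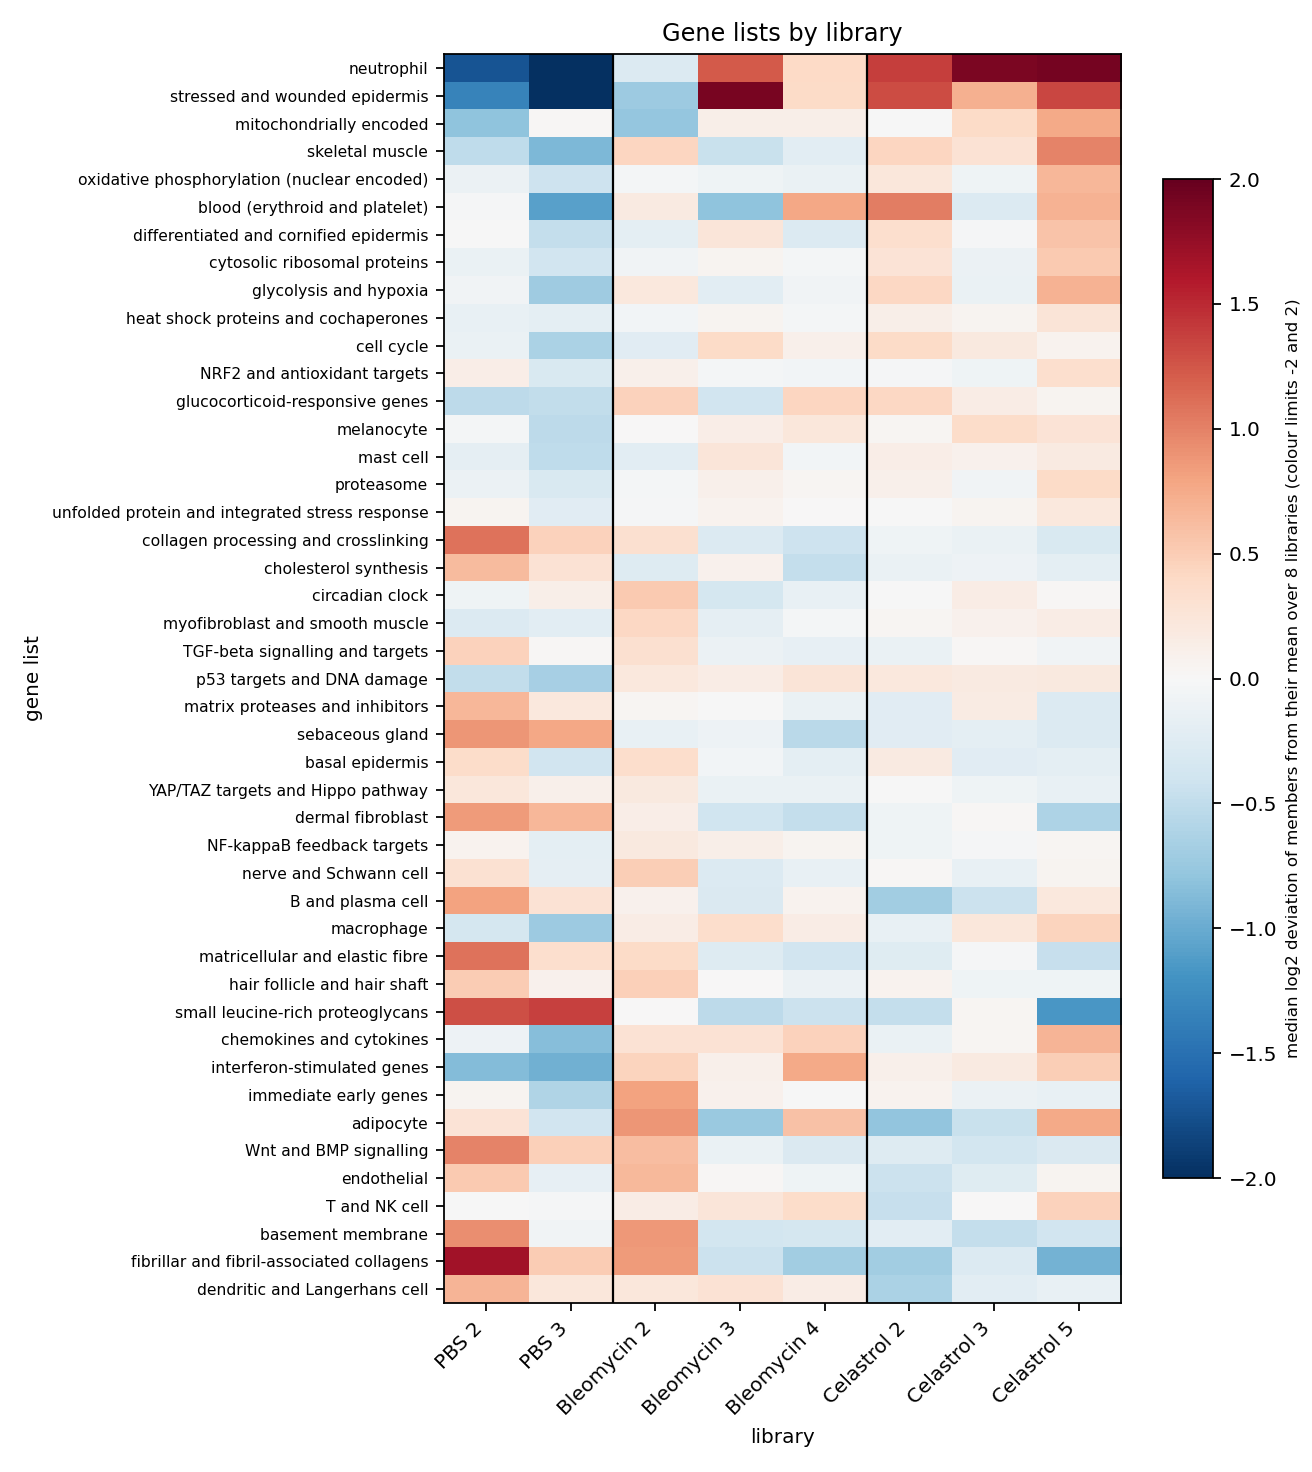
Colours give, for each of 45 gene lists (rows, ordered by median log2 difference) and each library (columns), the median log2 deviation of the members from their mean over the 8 libraries. The neutrophil and stressed epidermis lists are high in all celastrol libraries and in Bleomycin 3, the skeletal muscle list is highest in Celastrol 5, and the dendritic and Langerhans cell list is below 0 in all 3 celastrol libraries.

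Many of the lower genes were at 0 in both shallow celastrol libraries, and the part of depth in the lower side was not tested. Genes at 0 (a value that rounds to 0 at 4 decimals) numbered 411, 1931 and 245 in Bleomycin 2, 3 and 4, and 3441, 2209 and 377 in Celastrol 2, 3 and 5, where depth was estimated at 15100000, 14900000 and 37100000 reads. Of the 578 lower genes 317 were at 0 in Celastrol 2, 267 in Celastrol 3 and 252 in both. Over all 23185 genes tested these numbers were 3441 (14.8%), 2209 (9.53%) and 1281. Selecting genes by their celastrol level favours zeros among the lower genes and disfavours them among the 320 higher ones, of which 0 were at 0 in either. The counts are therefore descriptions. A mean value under 50 was found for 333 of the lower and 60 of the higher genes, and a mean of at least 200 for 137 and 233. Celastrol 2 also stood apart at higher levels: principal component 1 set it at 237.5 against -57.3 to -3.63 for the others, it held 278 of the genes at 0 despite a mean of at least 50, and among 11418 genes with a mean of at least 200 it was 2-fold below every other library for 133. For these 11418 genes the median absolute log2 difference was 0.216 to 0.383 between bleomycin libraries, 0.311 to 0.336 between celastrol libraries, and 0.228 to 0.395 across the groups.

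**Figure D5:**
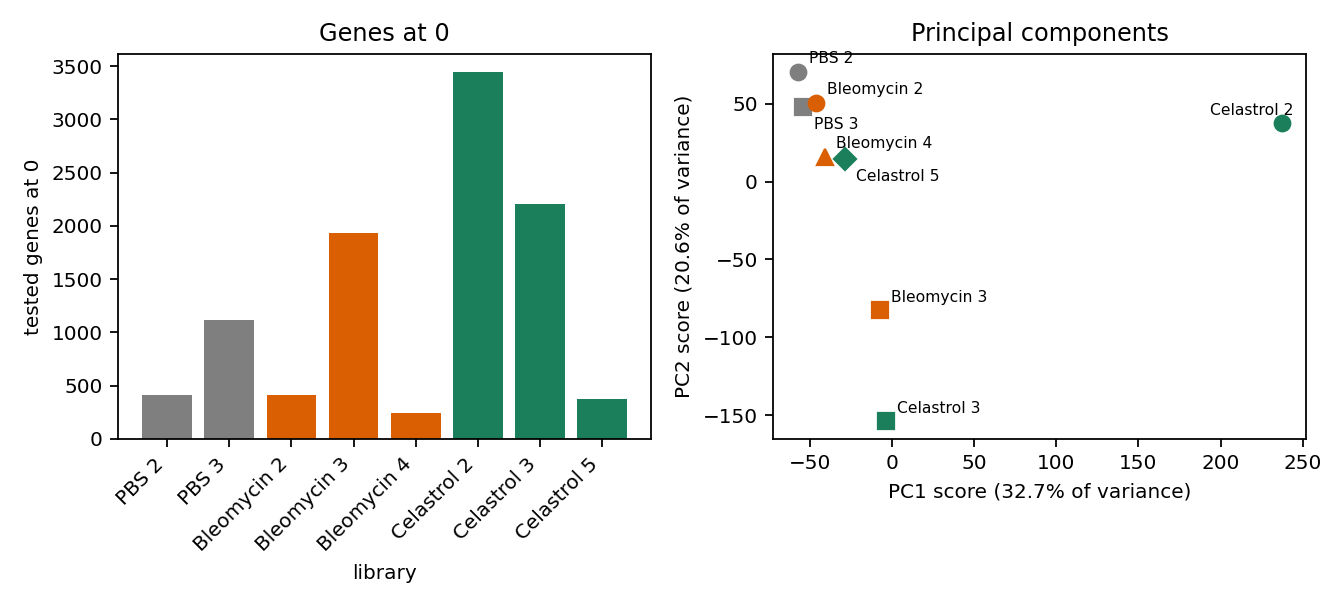
Left, the number of tested genes at 0 in each library; right, the scores of the 8 libraries on the first principal components of log2 values, with the share of variance on each axis. Celastrol 2 has the most genes at 0 and lies alone on the right, and Bleomycin 3 and Celastrol 3 lie low on the other component.

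Several of the 12 lower genes had moderate levels in every library. Ptpdc1 stood at 439, 489 and 316 against 120, 133 and 201, Ntrk2 at 1880, 1533 and 1772 against 995, 843 and 1217, and Ptk2b at 1136, 918 and 983 against 683, 604 and 644. In all 3 genes every celastrol library lay below every bleomycin library. The log2 differences were -1.46 ± 0.31, -0.77 ± 0.20 and -0.65 ± 0.18. Genes of leukocytes were Nfam1, an activating receptor, at 706, 666 and 626 against 368, 398 and 409, and Fmnl1, a formin, at 468, 314 and 392 against 200, 196 and 191. In both, every celastrol library lay below every bleomycin and PBS library. At the low end, C4a, a complement gene with a near-identical neighbour, stood at 116, 49.1 and 112 against 2.91, 0 and 36.8. Ear6, of a family of near-identical ribonuclease genes of eosinophils, was chosen after its values were seen and stood at 26.2, 61.4 and 37.6 against 0, 0 and 2.89. Cd209b, a lectin of a similar family, likewise chosen afterwards, stood at 145, 175 and 159 against 0, 116 and 1.42, and passed only without Celastrol 3 (log2 difference -6.69 ± 0.64, limma adjusted p = 0.0372).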

How the data were processed

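The authors deposited 1 table for all libraries with a normalized signal per gene on a linear scale, from estimated gene counts scaled by DESeq2 size factors in its poscounts form, per the file headers. The submitters' processing notes name the mm10 build, STAR 2.7.3a, Partek 10.0.22 and DESeq2, while the gene annotation and the use of strand are not given in the sources used here. Values were whole reads for only 58.6% to 67% of genes below 1000 reads (within 0.03 reads), so counts were not recovered and no count test was run. Library sums lay between 22900000 and 26400000, and depth was estimated from the value of a single read, at 14900000 to 37100000 reads. Differences that low depth hides, as in Celastrol 2 and 3, are not detectable here. Positions follow the table, and 22395 of the 23185 genes tested matched GENCODE release 21 of the mouse series by position.

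Here log2 of the deposited signal plus a pseudocount of 1 was fitted for all 8 libraries together by lmFit and trended eBayes (limma 3.58.1, R 4.3.3), with a mean per group, so that the PBS libraries add to the estimate of the spread. All p-values are two-sided. They were adjusted by the Benjamini-Hochberg method across the 23185 genes and called at 0.05. The labels do not say that libraries came from separate animals, so p-values measure only the spread between these libraries. The named genes were the 12 smallest p per direction with a mean of at least 50 and no overlap (predicted, mitochondrial and ribosomal protein genes left out), since none passed; the 2 smallest p and the highest level of each of 45 lists; and a fixed set of fibrosis and stress genes. The text gives those the results turn on. Members, lists and rule were chosen with earlier results of these data known, and no list was tested. The numbers in the labels were not taken to pair the libraries. Deviations of same-numbered bleomycin and celastrol libraries correlated at -0.00485 and 0.0477 across genes. Same-numbered PBS and bleomycin libraries correlated at 0.203 and 0.0964, and same-numbered PBS and celastrol libraries at 0.00725 and 0.111. Between groups, libraries of different number ran from -0.203 to 0.123. Alternatives changed the pseudocount, filter, scaling, weights, trend and block, and left libraries out.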

Additional observations from a re-analysis of the deposited data

How the results depend on the processing

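Of 21 alternatives, 18 also left 0 genes past the adjusted threshold. The exceptions were 2 predicted genes with eBayes without the trend, and 1 gene each without Bleomycin 3 and without Celastrol 3 (range 0 to 1 over single libraries left out), and the cause was not tested. Genes higher at an unadjusted p under 0.05 numbered 724 with library weights (254 to 426 without single libraries). Lower genes numbered 259 with a filter of 50 in at least 3 libraries, 115 with a mean of at least 200 and 379 without Celastrol 2 and Celastrol 3, where fewer genes or libraries enter, and 300 to 1322 without single libraries. With the replicate number as a block, lower genes numbered 1108 and skeletal muscle genes higher numbered 11 (10 to 23 without single libraries), and the block changed no call. The shared numbers were not taken to pair the samples. Leaving out libraries after seeing the data turned Tnni1 (0.713), Tnnt1 (0.0771), Tnnc1 (0.565), Hspa1a (-0.257), Hmox1 (0.228), Cdkn1a (0.177) and Cd207 (0.531) without Celastrol 2 and Celastrol 3. Without those and Bleomycin 3 it turned Myl3 (-0.212), Hspa1a (-0.561), Hmox1 (0.135), Nqo1 (0.086) and Cd207 (0.557). Library weights turned Atp2a2 (0.115), Col1a1 (0.416), Col1a2 (0.377), Col3a1 (0.566), Hmox1 (0.00262) and Cdkn1a (0.0771). The block turned Ccn2 (0.0398) and Hspa1a (-0.288), a pseudocount of 10 Hspa1a (-0.000656) and scaling by trimmed means of M values (TMM) Hspa1a (-0.0261). None of these genes passed in any setting. Without single libraries the log2 difference ran from -0.449 to 0.0474 for Atp2a2, -0.38 to 0.115 for Ccn2, -0.394 to 0.142 for Cd207, -0.269 to 0.232 for Cdkn1a, -1.27 to 0.695 for Col1a1, -0.872 to 0.554 for Col1a2, -0.523 to 0.6 for Col3a1, -0.419 to 0.735 for Hspa1a, -1.15 to 0.0337 for Hspa1b, -0.00109 to 1.41 for Krt6a, -0.944 to 3.02 for Myl3, -0.128 to 2.55 for S100a8, -1.63 to 0.136 for Tnni1 and -1.26 to 0.0851 for Tnnt1.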
